A study of Mus musculus with 27 samples.

Results

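Iron-dependent dioxygenases and demethylases are a family of enzymes that carry a single ferrous iron in their active site. The 37 genes described here were taken from a fixed list of family members, and all 37 had a row in the authors' deposited RNA table of 22552 genes. They comprise 3 TET genes, 5 hydroxylases of the hypoxia-inducible factor (HIF) pathway, 3 collagen prolyl 4-hydroxylase subunits, 3 collagen lysyl hydroxylases, 13 JmjC genes, 7 ALKBH-type genes and 3 further hydroxylases. Levels were measured in the livers of male C57B/6J mice that received 1 of 3 diets differing in carbonyl iron, with 3 mice and 3 RNA libraries per diet. The standard-iron diet (SID) held 50 mg per kg and the high-iron diet (HID) 8.3 g per kg, both given from 6 weeks of age. The low-iron diet (LID) held 0.9 mg per kg and was given from 3 weeks of age, so low iron and an earlier start cannot be told apart. The labels name no altered allele and no further agent in any group, and they do not give the time on the diet.

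Each gene had 1 FPKM value per diet, that is, fragments scaled to transcript length and library size, into which the authors had merged the 3 libraries. Values therefore carry no SD, read depth is unknown, and the only test of a difference is the authors' own p-value. The table names its diet columns by abbreviations, and the HID column was assigned by elimination. Known iron-response genes were ordered by dietary iron under that assignment. Hamp, which encodes the iron hormone hepcidin, stood at 15.8 FPKM in LID, 3200 in SID and 6028 in HID. Tfrc, the transferrin receptor gene, stood at 30.4 FPKM in LID, 4.56 in SID and 1.85 in HID, and Id1, a target of bone morphogenetic protein signalling, at 3.65, 8.54 and 73.6 FPKM. The methylation table of the same study held no locus in any of the 37 genes and was not used here.

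These enzymes use molecular oxygen and 2-oxoglutarate, an intermediate of the citric acid cycle, to put a hydroxyl group on their substrate, and most release succinate and carbon dioxide in doing so. On collagen and on HIF the hydroxyl group stays. On a methyl group bound to nitrogen, as in methylated lysine, it makes the methyl group unstable so that it is lost. Because iron must be ferrous and bound for each cycle, the family is a known meeting point of iron, oxygen and metabolism. The data below are transcript levels of the genes and say nothing of how much iron the enzymes held.

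On the standard diet the levels of the 37 genes differed widely. Phyh, which encodes phytanoyl-CoA hydroxylase of peroxisomal alpha-oxidation, was the highest at 1525 FPKM and ranked 37 among all genes. It made up 86.04% of the summed FPKM of the 37 genes. Bbox1, which encodes the last enzyme of carnitine synthesis, followed at 103 FPKM, and Egln2, a HIF prolyl hydroxylase gene, at 25.5 FPKM. The median over the 37 genes was 2.203 FPKM in SID, 2.07 in HID and 2.26 in LID, so most of the family was expressed at a low level. At the lower end, P4ha3 was listed at 0 in SID, Tet1 stood at 0.00632 FPKM, P4htm at 0.0481 and Plod2 at 0.145.

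**Figure D1:**
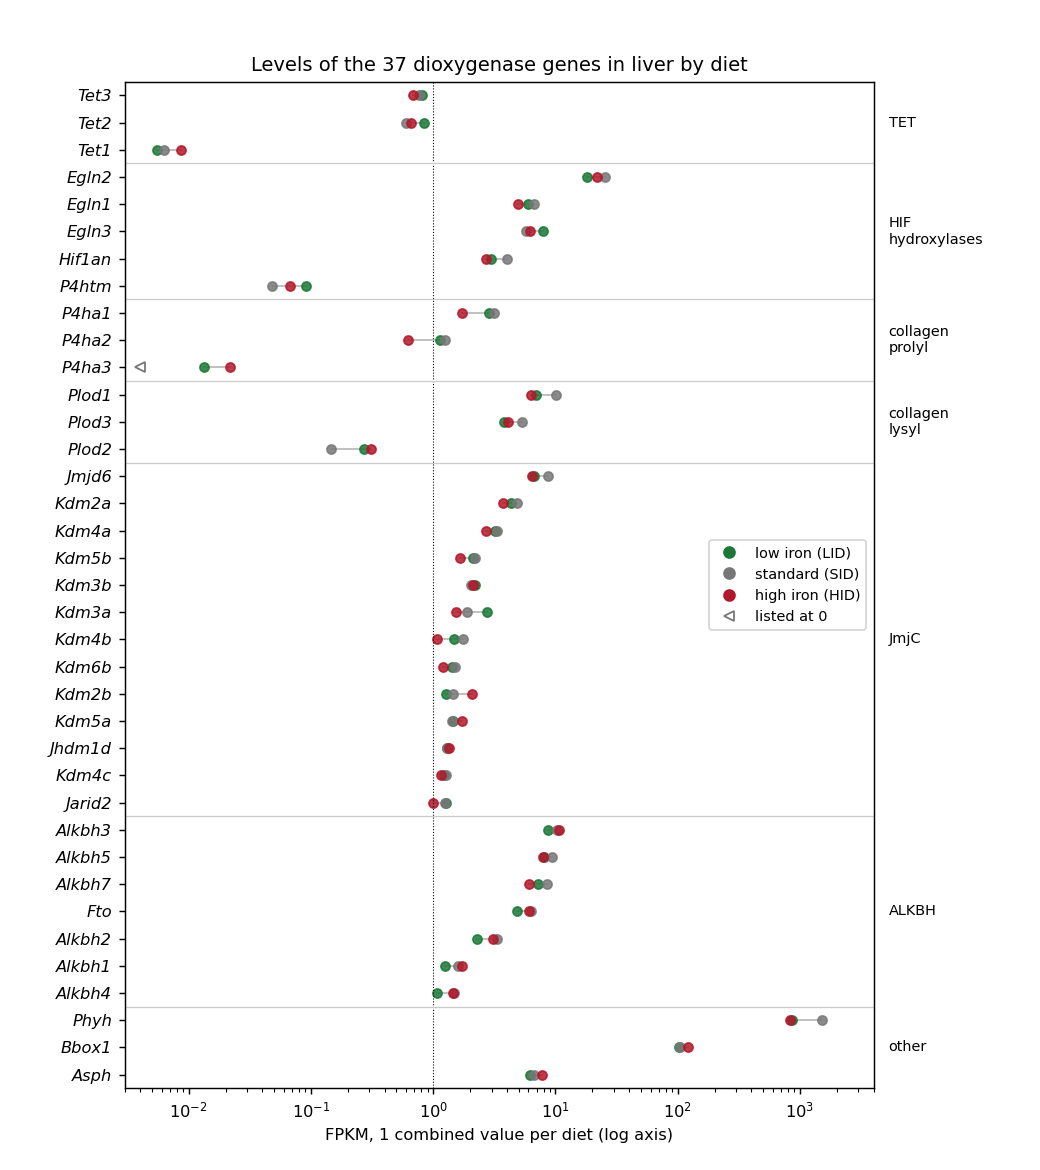
FPKM of each of the 37 genes on a log axis, with 1 point per diet (green low iron, grey standard, red high iron), grouped by role and sorted by the SID level within each role. The dotted line is 1 FPKM, and the open triangle marks P4ha3, listed at 0 in SID. A reader should see that the genes differ from each other by far more than any gene differs between diets, with Phyh at 1525 and Tet1 at 0.00632 FPKM in SID.

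A gene was tested here when its mean over the 3 diets was at least 1 FPKM and its adjusted p in the authors' deposited table was below 1, and it was called when that adjusted p was below 0.05. Of the 37 genes, 31 were tested in each of the 3 comparisons, and Tet1, Tet2, Tet3, P4htm, P4ha3 and Plod2 fell below the filter. Few of the 31 were called. In HID against SID, P4ha1 and Plod1 were called lower and 0 genes higher, so 2 of 31 (6.45%) were called, beside 6.66% of all 9473 genes tested (2.82% higher and 3.84% lower). For LID against SID, 0 of 31 were called, beside 4.88% of 9482 genes (1.57% higher and 3.31% lower), and the smallest adjusted p of a member was 0.148 in the authors' deposited table. In HID against LID, Kdm3a was called lower in HID, so 1 of 31 (3.23%) was called, beside 3.94% of 9490 genes (2.1% higher and 1.84% lower). The shares in HID against SID and HID against LID lie near their backgrounds, and the counts are not a result about the family.

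The unadjusted p-values of the authors' deposited table were also read at a threshold of 0.05. In HID against SID 6 of 31 genes passed (19.4%, all genes 18.1%), in LID against SID 6 of 31 (19.4%, all genes 17%) and in HID against LID 2 of 31 (6.45%, all genes 10.2%). All 6 in HID against SID had the lower value in HID, and they were Egln1, Hif1an, Kdm4b, P4ha1, Phyh and Plod1. The 18.1% of all genes covers both directions and was not split by direction at this threshold. Of the 6 in LID against SID, Egln3 and Kdm3a had the higher value in LID, and Egln2, Hif1an, Phyh and Plod1 the lower one. HID against SID and LID against SID share the SID libraries, so values of a gene in both comparisons are not independent.

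Changes are given on the log2(FPKM + 1) scale relative to the median change of all tested genes, which was −0.07 in HID against SID, −0.13 in LID against SID and 0.06 in HID against LID. The median over the 31 genes was −0.12 in HID against SID, −0.01 in LID against SID and −0.11 in HID against LID. No tested gene of the family differed by 2-fold or more between any pair of diets. The largest fold was 1.99 in HID against SID (P4ha2, not called), 1.78 in LID against SID (Phyh, not called) and 1.82 in HID against LID (P4ha2, not called). Without removing the median shift, the level was highest in SID for 20 of the 31 genes (64.5%), beside 51.8% of all genes tested in all 3 comparisons. With the shift removed, SID was highest for 12 of 31 (38.7%, all genes 35.4%), and HID was lowest for 17 of 31 (54.8%, all genes 33.5%). These shares are descriptions of 1 value per diet and were not tested.

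**Figure D2:**
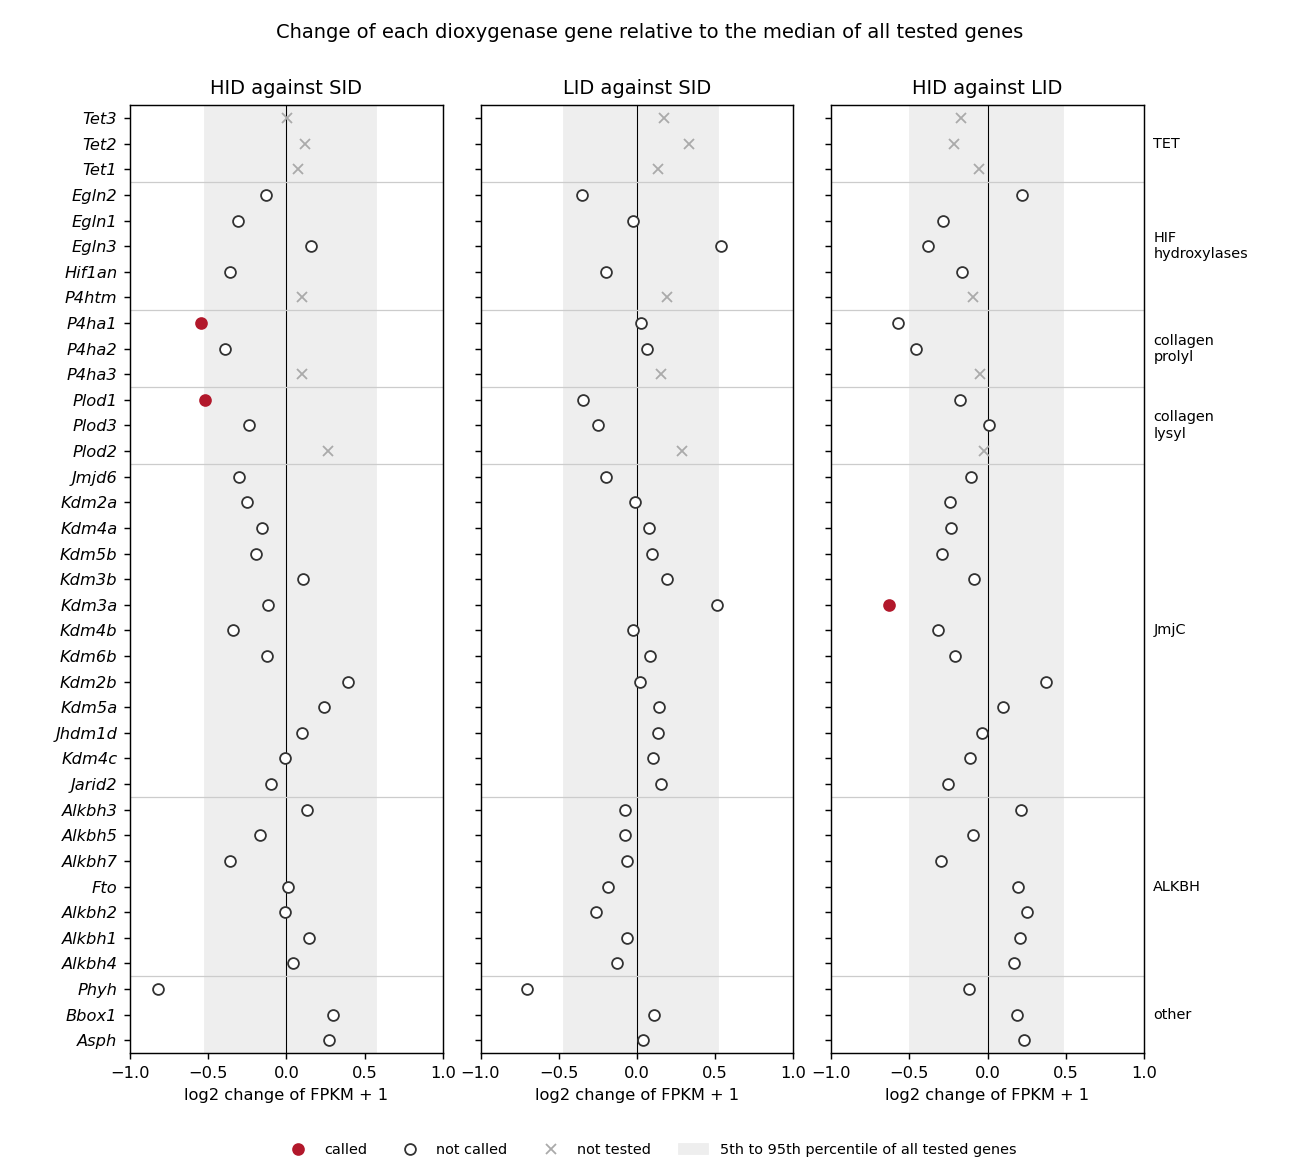
Log2 change of FPKM + 1 of each gene in the 3 comparisons, relative to the median change of all tested genes (vertical line at 0). Filled red points were called from the authors' deposited table, open points were not called and crosses were not tested, and the grey band runs from the 5th to the 95th percentile of all tested genes. P4ha1 and Plod1 in HID against SID and Kdm3a in HID against LID are the called genes, with Plod1 just inside the band. Phyh lies outside the band without being called in both comparisons with SID. The same holds for Egln3 in LID against SID and P4ha1 in HID against LID.

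The 250 bases before the annotated start of each of the 3 called genes are shown, because P4ha1 and Kdm3a are known targets of HIF in mammalian cells and the core letters to which HIF binds can be looked for there. Sequences are from RefSeq on build GRCm38.p6, 5′ to 3′ on the strand of the gene, and capitals mark ACGTG or GCGTG on either strand (CACGT and CACGC are the same letters read from the other strand). For Kdm3a, which has 3 annotated starts, the window of the most upstream start is shown, and the other 2 windows held neither motif.
P4ha1, chr10:59323046-59323295, plus strand: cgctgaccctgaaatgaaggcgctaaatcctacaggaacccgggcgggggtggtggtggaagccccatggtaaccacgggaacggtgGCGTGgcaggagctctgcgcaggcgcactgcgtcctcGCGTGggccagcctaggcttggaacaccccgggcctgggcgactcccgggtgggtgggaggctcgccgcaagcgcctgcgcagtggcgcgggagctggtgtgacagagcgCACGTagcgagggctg
Plod1, chr4:147936777-147937026, minus strand: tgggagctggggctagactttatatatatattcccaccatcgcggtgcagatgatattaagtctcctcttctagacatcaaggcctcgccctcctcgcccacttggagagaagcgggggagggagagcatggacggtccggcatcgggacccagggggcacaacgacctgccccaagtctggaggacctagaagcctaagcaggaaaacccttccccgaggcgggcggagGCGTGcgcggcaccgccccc
Kdm3a, chr6:71632918-71633167, minus strand: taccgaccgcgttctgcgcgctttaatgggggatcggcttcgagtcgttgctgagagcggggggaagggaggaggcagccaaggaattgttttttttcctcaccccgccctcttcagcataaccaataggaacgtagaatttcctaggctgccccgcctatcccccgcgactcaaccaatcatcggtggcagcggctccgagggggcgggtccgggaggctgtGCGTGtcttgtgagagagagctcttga
P4ha1 held 3 matches, at −163 to −159, −126 to −122 and −16 to −12 from the start, and Plod1 and Kdm3a held 1 match each, at −20 to −16 and −27 to −23. Of all 32851 promoter windows of this length, 38.6% held at least 1 match, and of the 29 family members with a window, 17 (58.6%) held a match in at least 1 window, beside 41.5% of the 27025 genes with a window. The windows of the family were also richer in CpG, with a median of 18 CpG per window against 6 over all windows, and both motifs contain a CpG. A match is a match of letters and not a binding site.

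Among the HIF hydroxylases, the EGLN enzymes mark HIF alpha subunits for destruction when oxygen is present, and Hif1an, the factor-inhibiting HIF, blocks their contact with coactivators. Egln2, also known as PHD1, was the most abundant, at 17.9 FPKM in LID, 25.5 in SID and 22.0 in HID. It made up 67.2% of the summed FPKM of the 3 EGLN genes in SID, 66.5% in HID and 56.4% in LID. Egln1, also known as PHD2 and the main oxygen sensor in most cells, stood at 5.91 FPKM in LID, 6.71 in SID and 4.93 in HID. Egln3, or PHD3, whose gene is itself switched on by HIF, stood at 7.95 FPKM in LID, 5.77 in SID and 6.17 in HID. The order of the 3 thus put Egln2 first on every diet, while Egln1 was above Egln3 in SID and below it in LID and HID, by differences that could not be set against a spread.

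None of the 4 tested HIF hydroxylase genes was called in any comparison. The nearest was Hif1an, at 2.98 FPKM in LID, 4.02 in SID and 2.71 in HID, with a log2 change of −0.36 in HID against SID (unadjusted p = 0.00905, adjusted p = 0.122 in the authors' deposited table). Hif1an was thus highest on the standard diet, with both iron extremes below it. On the low-iron side, in LID against SID, Egln3 had a log2 change of 0.54 (unadjusted p = 0.0412, adjusted p = 0.313 in the authors' deposited table) and Egln2 one of −0.35 (unadjusted p = 0.0134, adjusted p = 0.158). P4htm, a membrane-bound prolyl hydroxylase of the endoplasmic reticulum, was below 0.1 FPKM on every diet, at 0.0912, 0.0481 and 0.0678 in LID, SID and HID.

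The collagen prolyl 4-hydroxylases make the hydroxyproline that keeps the collagen triple helix stable at body temperature, and each P4ha gene encodes an alternative catalytic alpha subunit. P4ha1 stood at 2.84 FPKM in LID, 3.15 in SID and 1.70 in HID. It fell in HID against SID with a log2 change of −0.55 (adjusted p = 0.00938 in the authors' deposited table), a ratio of 0.542 on the FPKM scale. LID and SID were close to each other and HID stood apart, and against LID the log2 change in HID was −0.57 (unadjusted p = 0.00806, adjusted p = 0.114, both from the authors' deposited table), short of a call. P4ha2, the second subunit, had a similar order, at 1.14 FPKM in LID, 1.24 in SID and 0.626 in HID. Its log2 change in HID against SID was −0.39 (adjusted p = 0.410 in the authors' deposited table), not called, at a level close to the filter. P4ha3 was listed at 0 in SID and stood at 0.0134 FPKM in LID and 0.0216 in HID.

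Lysyl hydroxylases prepare collagen lysines for cross-linking and for the attachment of sugars. Plod1 stood at 6.96 FPKM in LID, 10.1 in SID and 6.36 in HID. It fell in HID against SID with a log2 change of −0.52 (adjusted p = 0.0421 in the authors' deposited table), a ratio of 0.632 on the FPKM scale. Plod1 thus had lower values on both iron extremes, although LID against SID was not called (log2 change −0.34, unadjusted p = 0.0121, adjusted p = 0.148 in the authors' deposited table). Plod3, whose product also transfers sugars to collagen, stood at 3.82 FPKM in LID, 5.28 in SID and 4.06 in HID and was not called in any comparison. Plod2, the enzyme of the telopeptide ends in fibrotic collagen, was low on every diet, at 0.272, 0.145 and 0.308 FPKM in LID, SID and HID, with its lowest value in SID, the diet in which Plod1 and Plod3 were highest. It was not tested.

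Of 14 listed collagen substrates and partners of these enzymes 7 were tested. None of the 7 was called in HID against SID and 0 had an unadjusted p below 0.05, while their median log2 change was 0.31. The same held in HID against LID, where the median was −0.23. On the low-iron diet Col4a1, a basement-membrane collagen gene, rose from 1.80 to 3.20 FPKM (adjusted p = 0.00899 in the authors' deposited table). It was the 1 call among the 7 genes in LID against SID, beside 4.88% of all genes tested. There 4 of 7 had an unadjusted p below 0.05, beside 17% of all genes tested, and the median log2 change was 0.44. Markers of stellate cells and fibroblasts, which make most fibrillar collagen, summed to 108 FPKM in LID, 75.3 in SID and 106 in HID. Most of that sum was Dcn, at 77.5, 58.4 and 83.8 FPKM. Acta2, Des and Pdgfrb were lower in HID than in SID, and the other listed markers were higher. Col1a1, Col1a2 and Col3a1 stood in both lists. In HID against SID 1 of 8 tested markers was called higher (Lum), beside 2.82% of all genes tested. In LID against SID it was 1 of 8 (Rgs5), beside 1.57%. None of the 10 stellate cell markers was listed at 0. Their part in the values of P4ha1 and Plod1 was not tested. In bulk liver RNA, fewer cells of a type and less RNA per cell cannot be told apart.

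The JmjC genes encode lysine demethylases of histones and related proteins. On the standard diet they lay in a narrow range from 1.24 FPKM (Jarid2) to 8.70 FPKM (Jmjd6), with a median of 1.76, and all 13 were tested. Jmjd6, a hydroxylase of lysines in splicing factors, stood at 6.70 FPKM in LID, 8.70 in SID and 6.48 in HID. Jarid2, which has lost the residues that hold iron and serves as a partner of the Polycomb repressive complex, stood at 1.27 FPKM in LID, 1.24 in SID and 0.988 in HID. Neither was called in any comparison.

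Kdm3a, a demethylase that removes a silencing mark from histone tails and a known HIF target, was the called member of the group. It stood at 2.74 FPKM in LID, 1.89 in SID and 1.53 in HID, so its values were in the reverse order of dietary iron. In HID against LID it was lower by a log2 change of −0.63 (adjusted p = 0.0419 in the authors' deposited table), a ratio of 0.557 on the FPKM scale. The step from SID to LID had a log2 change of 0.51 (unadjusted p = 0.0256, adjusted p = 0.239 in the authors' deposited table) and gave no call, nor did the step from SID to HID (−0.12, adjusted p = 0.693). When the p-values of HID against LID were adjusted within that comparison alone, Kdm3a had an adjusted p of 0.0544 and was not called. Its close relative Kdm3b, which removes the same mark, stood at 2.18, 2.05 and 2.12 FPKM in LID, SID and HID and was not called.

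The other JmjC genes were not called. Kdm2b, a demethylase that binds unmethylated CpG islands, had the highest log2 change of the 31 tested genes in HID against SID on the log2(FPKM + 1) scale, at 1.27 FPKM in LID, 1.46 in SID and 2.07 in HID (log2 change 0.39, adjusted p = 0.538 in the authors' deposited table). Its paralog Kdm2a had its lowest value in HID, at 4.33, 4.89 and 3.70 FPKM in LID, SID and HID. Kdm4b, which acts on trimethylated lysines of silent chromatin, stood at 1.48 FPKM in LID, 1.76 in SID and 1.08 in HID (log2 change −0.34 in HID against SID, unadjusted p = 0.00802, adjusted p = 0.113 in the authors' deposited table). Its paralogs Kdm4a (3.17, 3.34 and 2.71 FPKM in LID, SID and HID) and Kdm4c (1.23, 1.28 and 1.15 FPKM) likewise had their lowest values in HID. Of the pair that removes an activating promoter mark, Kdm5a had 1.44, 1.42 and 1.73 FPKM and Kdm5b 2.12, 2.203 and 1.67 FPKM, so Kdm5a was highest and Kdm5b lowest in HID. Kdm6b, which opposes Polycomb silencing, had 1.42, 1.51 and 1.19 FPKM, and Jhdm1d, now named Kdm7a, had 1.30, 1.30 and 1.34 FPKM.

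Over the 13 JmjC genes the median log2 change was −0.12 for HID against SID and −0.21 for HID against LID, with 11 of 13 members below the median of all tested genes in the latter comparison. This count was 10 of 13 without removing the median shift and 12 of 13 when diets were scaled to their summed FPKM. Between LID and SID the median was 0.10, with 10 of 13 members above the median of all tested genes, but −0.04 with 4 of 13 above 0 when the shift was not removed. By construction about as many genes lie above as below that median over the whole table, and members were not tested as a group.

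**Figure D3:**
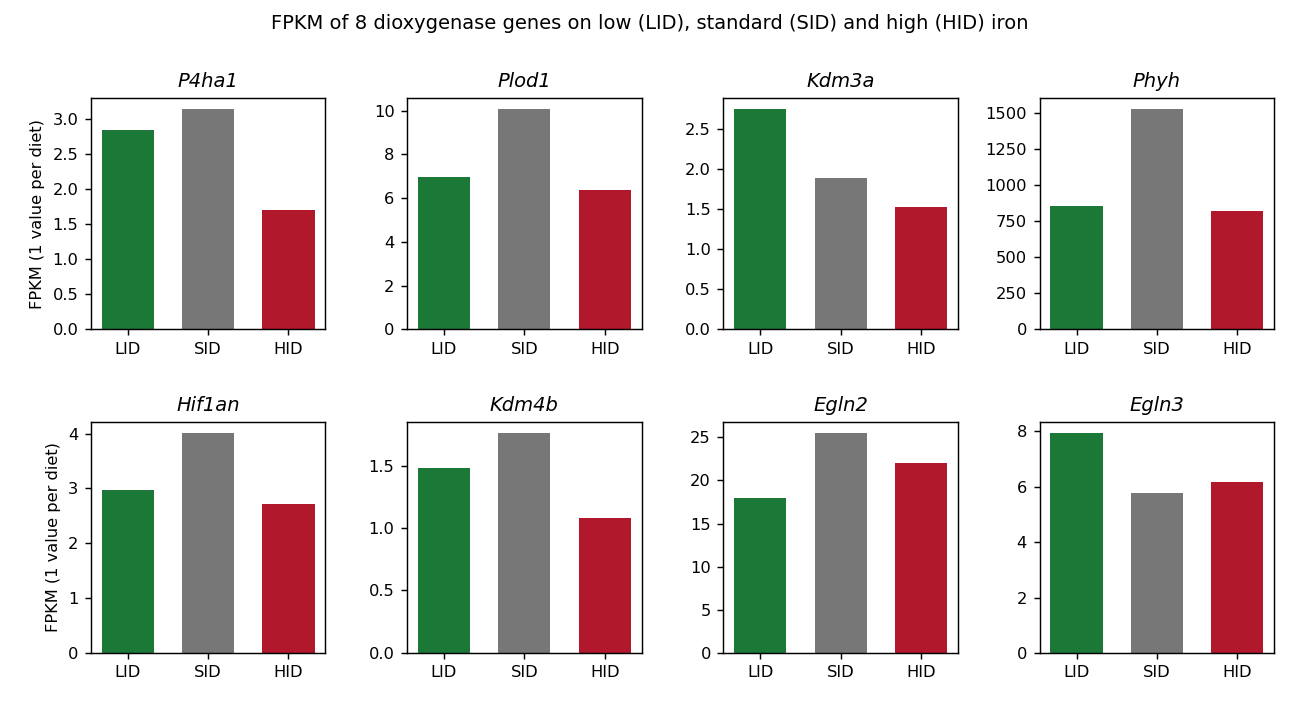
FPKM of 8 genes as bars from 0, with 1 bar per diet and no error bars because the authors' table holds 1 combined value per diet. P4ha1 has its lowest bar in HID (1.70 FPKM), Plod1, Phyh, Hif1an and Kdm4b are highest in SID, Kdm3a is highest in LID (2.74) and lowest in HID (1.53 FPKM), and Egln2 and Egln3 have opposite orders of LID and SID.

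TET enzymes oxidise methylated cytosine and start its removal from DNA. Their transcripts were scarce in liver and all 3 fell below the filter. Tet2 stood at 0.837 FPKM in LID, 0.602 in SID and 0.652 in HID, and Tet3 at 0.814, 0.766 and 0.684 FPKM. Tet1, the form known from embryonic stem cells, was below 0.01 FPKM on every diet. Although they were not counted as tested, Tet2 and Tet3 had p-values in the authors' deposited table, the smallest of which was for Tet2 in LID against SID (unadjusted p = 0.0829, adjusted p = 0.452). The summed level of the 3 genes was 1.66 FPKM in LID, 1.37 in SID and 1.34 in HID.

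Of 13 listed genes that write or read DNA methylation or take part in its removal 8 were tested. Gadd45g, a stress-induced gene linked to DNA repair and demethylation, fell from 58.5 FPKM in SID to 30.4 in HID (adjusted p = 0.00159 in the authors' deposited table) and to 30.6 in LID (adjusted p = 0.00116). Mbd3, a subunit of the NuRD chromatin complex, fell from 24.7 FPKM in SID to 15.0 in LID (adjusted p = 0.0195 in the authors' deposited table). Gadd45a was higher in HID than in LID, at 4.15 against 1.54 FPKM (adjusted p = 0.0363 in the authors' deposited table). In HID against SID, LID against SID and HID against LID, 1, 2 and 1 of the 8 genes were called. The shares over all tested genes were 6.66%, 4.88% and 3.94%. At an unadjusted p below 0.05 in the authors' deposited table there were 4, 3 and 1 of the 8, beside 18.1%, 17% and 10.2% of all genes tested. The median log2 changes were 0.04 in HID against SID, −0.07 in LID against SID and 0.05 in HID against LID.

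ALKBH-type enzymes remove methyl groups from nucleic acids, except for members that act on proteins. Alkbh5 and Fto, both erasers of N6-methyladenosine in RNA, stood at 8.05, 9.45 and 7.86 FPKM and at 4.87, 6.30 and 6.02 FPKM in LID, SID and HID. Alkbh3, a repair enzyme for alkylated nucleic acids, was the highest of the 7, at 8.70 FPKM in LID, 10.2 in SID and 10.7 in HID. Alkbh4 was the lowest, at 1.08 FPKM in LID, 1.49 in SID and 1.44 in HID. Alkbh7, a mitochondrial protein, had 7.26, 8.46 and 6.02 FPKM, the DNA repair enzyme gene Alkbh2 had 2.26, 3.29 and 3.06 FPKM, and Alkbh1 had 1.26, 1.59 and 1.72 FPKM. Alkbh7 and Alkbh5 had their lowest values in HID, although Alkbh5 was nearly equal on both iron extremes, and the other 5 had theirs in LID. For Alkbh7 the unadjusted p in the authors' deposited table was 0.146 in HID against SID and 0.477 in HID against LID.

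None of the 7 ALKBH-type genes was called in any comparison, and 0 of 7 had an unadjusted p below 0.05 in the authors' deposited table in each of them. The smallest unadjusted p was that of Fto in LID against SID (0.0921, adjusted p = 0.477 in the authors' deposited table). All 7 lay below the median of all tested genes in LID against SID, with log2 changes from −0.26 to −0.06 and a median of −0.08, and scaling to summed FPKM turned that median to 0.02 with 4 of 7 above 0. In HID against LID 5 of 7 were above the median of all tested genes, with a median log2 change of 0.20. The genes that write and read N6-methyladenosine had 0 of 8 tested members called in each comparison, with 0, 1 and 0 members at an unadjusted p below 0.05 in HID against SID, LID against SID and HID against LID.

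The 3 remaining hydroxylases act on small molecules or on secreted and membrane proteins. Phyh stood at 855 FPKM in LID, 1525 in SID and 821 in HID. The log2 change was −0.82 in HID against SID (unadjusted p = 0.00555, adjusted p = 0.0889 in the authors' deposited table), the lowest of the 31 tested genes on the log2(FPKM + 1) scale although the FPKM ratio of P4ha2 was lower (0.503 against 0.538), and −0.70 in LID against SID (unadjusted p = 0.0233, adjusted p = 0.227). Neither was called, and HID and LID were nearly equal. The summed FPKM of the 37 genes, which Phyh dominates, was 1079 in LID, 1772 in SID and 1065 in HID. Among 9 genes of the phytanate and carnitine pathways 8 were tested. Aldh3a2, the fatty aldehyde dehydrogenase that acts on phytol-derived aldehydes, fell from 48.4 to 30.0 FPKM in HID against SID (adjusted p = 0.0419 in the authors' deposited table). It was the 1 call among the 8 genes in HID against SID, beside 6.66% of all genes tested. In LID against SID and HID against LID 0 of 8 were called, beside 4.88% and 3.94%. The median log2 change of the 8 was −0.24 in HID against SID and −0.02 in each of the other comparisons. Bbox1 varied less than Phyh in FPKM ratio, with 102 FPKM in LID, 103 in SID and 121 in HID (log2 change 0.30 in HID against SID, adjusted p = 0.784 in the authors' deposited table). Asph, which hydroxylates aspartate and asparagine in growth-factor-like domains, stood at 6.18, 6.67 and 7.80 FPKM and was not called, and its gene also encodes calcium-handling proteins of the sarcoplasmic reticulum that lack the enzyme domain.

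Further genes of the same biochemistry were looked up from fixed lists. Counts for any list are to be read beside the shares over all tested genes. In HID against SID, LID against SID and HID against LID, 6.66%, 4.88% and 3.94% of all tested genes were called. At an unadjusted p below 0.05 the shares were 18.1%, 17% and 10.2%. Of 25 other 2-oxoglutarate dioxygenase genes 23 were in the table and 15 were tested, and 0 of 15 were called in each comparison, with 1, 2 and 0 at an unadjusted p below 0.05 in HID against SID, LID against SID and HID against LID. Their median log2 changes were −0.06, −0.01 and 0.03. The smallest adjusted p among the 15 tested genes in the authors' deposited table was that of Phyhd1, a relative of Phyh, in LID against SID (0.0907), with 23.5 FPKM in LID, 34.9 in SID and 30.5 in HID. Below the filter stood Hr, a JmjC gene known from hair growth, at 0.0730 FPKM in LID, 0.122 in SID and 1.04 in HID, with an adjusted p of 3.98e-10 for HID against SID in the authors' deposited table. It was singled out after its values were seen. Other non-haem iron oxygenases, among them enzymes of tyrosine, cysteine and tryptophan breakdown, had 0 of 10 tested members called in each comparison, with 2, 1 and 1 at an unadjusted p below 0.05. Pir, an iron-binding nuclear protein gene, came nearest in HID against LID, at 12.7 against 7.71 FPKM (adjusted p = 0.0973 in the authors' deposited table).

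The flavin-dependent demethylases Kdm1a and Kdm1b, which need no iron, were not called either. Kdm1a stood at 2.34 FPKM in LID, 3.07 in SID and 2.42 in HID, and Kdm1b at 4.14, 5.06 and 5.30 FPKM. Histone lysine methyltransferases, which place the marks that JmjC enzymes remove, had 0 of 15 tested members called in each comparison, with 1, 0 and 0 at an unadjusted p below 0.05. The enzymes that make or use 2-oxoglutarate and succinate had 0 of 15 called, with 1 member at an unadjusted p below 0.05 in each comparison. The member with the smallest p in HID against SID was Fh1, the fumarate hydratase gene, at 79.5 FPKM in HID and 123 in SID (adjusted p = 0.0855 in the authors' deposited table).

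Partners and targets of HIF were looked up as the pathway around the EGLN enzymes. Ankrd37, a HIF target, rose from 0.834 FPKM in SID to 11.5 in LID with an adjusted p listed as 0 in the authors' deposited table, while its level in HID was 0.861. Ndrg1 rose from 4.997 to 8.74 FPKM in LID against SID (adjusted p = 0.00906 in the authors' deposited table), and Bhlhe40 fell from 20.7 to 11.8 FPKM (adjusted p = 0.00527). Ankrd37 passed the filter only through LID, where it was high, so its call is no support for the list. For the comparisons with LID no count of calls is therefore given for the 15 tested hypoxia targets. Leaving Ankrd37 aside, the calls in LID against SID went both ways, with Ndrg1 higher and Bhlhe40 lower. The median log2 change there was 0.31, with Ankrd37 among the 15. For HID against SID 0 of 15 were called (all genes 6.66%), with 3 at an unadjusted p below 0.05 (all genes 18.1%) and a median of −0.01. For HID against LID, again leaving Ankrd37 aside, Bhlhe40 was called higher and Ndrg1 lower. The median over the 15 was −0.34. Cited2, which competes with HIF for its coactivators, was at 18.7 FPKM in LID, 9.76 in SID and 6.42 in HID. It rose in LID against SID (adjusted p = 0.000983 in the authors' deposited table) and was lower in HID than in LID (adjusted p = 1.91e-07). Vhl, whose product binds hydroxylated HIF, fell from 4.10 to 2.34 FPKM in HID against SID (adjusted p = 0.0337 in the authors' deposited table). Of 8 listed HIF subunits and partners 7 were tested. In HID against SID, LID against SID and HID against LID 1 of 7 was called, beside 6.66%, 4.88% and 3.94% of all genes tested. The HIF subunit genes Hif1a (7.53, 6.89 and 8.04 FPKM in LID, SID and HID), Epas1 (25.3, 19.2 and 18.9 FPKM) and Arnt (5.06, 4.73 and 4.82 FPKM) were not called in any comparison.

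The tissue was checked against cell type markers. Apoa1, an apolipoprotein gene of hepatocytes, stood at 8602 FPKM in LID, 12243 in SID and 8346 in HID, whereas Alb, the albumin gene, was listed at 0 on every diet and Serpina1a at 0 in LID and SID, which in a table of this kind can be a failed estimate. Hepatocyte markers had 0 of 8 tested members called in each comparison, with 1, 1 and 0 at an unadjusted p below 0.05. Macrophage markers summed to 244 FPKM in LID, 152 in SID and 219 in HID. Against SID, 5 of 10 were called higher in LID (all genes 1.57%) and 2 of 10 in HID (all genes 2.82%). Neutrophil markers summed to 195.3 FPKM in LID, 6.57 in SID and 21.3 in HID, and all 8 had their highest value in LID. No count of calls is given for them, because Camp, Ngp and Retnlg passed the filter only through LID. Erythroid markers summed to 1126 FPKM in LID, 802 in SID and 821 in HID, a sum made up mostly of globin transcripts. Their calls went both ways. Against SID, for example, Hbb-b1 and Car2 were called higher and Alas2 lower in LID, and Car2 was called higher and Alas2 lower in HID. Alas2, which encodes the erythroid enzyme that starts haem synthesis, stood at 27.4 FPKM in LID, 44.0 in SID and 8.71 in HID. The part of these cell types in the values of the 37 genes was not tested.

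The size of change that the authors' test called limits what can be read from the genes that were not called. Among all genes with a mean from 1 to 2 FPKM, where 11 of the 31 tested family members lie, the smallest fold called was 1.64 in HID against SID, and it was 1.74 in LID against SID and 1.74 in HID against LID. Among genes from 5 to 10 FPKM, with 9 members, the smallest folds called were 1.58, 1.61 and 1.68. The share of genes called in LID against SID was 1.96% from 1 to 2 FPKM and 8.43% from 10 to 100 FPKM. No gene of these levels was called at a smaller fold, so a member that was not called may still differ.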

How the data were processed

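Liver RNA of 9 mice (3 per diet) was sequenced from TruSeq libraries, per the labels. Per the submitters' processing notes, TopHat, Cufflinks 2.2.1 and the build mm9 were used. For RNA, the deposited table holds FPKM, 1 combined value per gene and diet, with a p-value and an adjusted p-value of the authors for each of 3 comparisons. The unit was inferred from Cufflinks and the range of values, since no header names it. No source used here names the authors' test. Their adjusted p-values equalled a Benjamini-Hochberg adjustment over the 34481 p-values of all 3 comparisons together (largest gap 2.69e-06). Strand use in counting is not named either, and Plod3, Kdm2a, Kdm5a, Kdm5b, Jmjd6, Alkbh1, Alkbh2, Alkbh7 and Asph (9 of the 37 genes) overlap another protein-coding gene in RefSeq, so their values are less certain.

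Genes with a mean of at least 1 FPKM and an adjusted p below 1 were counted as tested, and those below 0.05 as called. Changes are on the log2(FPKM + 1) scale relative to the median of tested genes, which understates changes of low genes. The counting was tested on simulated data. Python 3.11.15, pandas 2.3.3 and numpy 2.4.6 were used. Fits over libraries with limma, as planned, were not possible with merged values. Promoter windows were matched by symbol (29 of 37 genes).

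Values in full are given for called members, the 2 largest changes in each direction per comparison, the highest and lowest member of each role and all members of roles of 3 or fewer, and for up to 4 called genes per list, or the 2 with the smallest p. The HIF, iron and collagen genes named beyond this, and the other members, were chosen with their values seen. The members and lists were chosen with earlier results of these data known. Alternatives were other thresholds, adjustments, filters, pseudocounts and scalings.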

Additional observations from a re-analysis of the deposited data

How the results depend on the processing

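No paired analysis was possible because the table holds 1 combined value per diet, and for the same reason no library could be left out. Of the members called, 2 in HID against SID, 0 in LID against SID and 1 in HID against LID, the counts were 3, 0 and 1 at an adjusted p below 0.1 (Phyh joined), 2, 0 and 1 without a filter or with a 1.5-fold limit, and 2, 0 and 0 with adjustment within a comparison (Kdm3a lost). They were 6, 6 and 2 at an unadjusted p below 0.05, and 1, 0 and 0 with a mean of at least 5 FPKM, which removes P4ha1 and Kdm3a by construction. Directions of P4ha1, Plod1 and Kdm3a in the comparison that called them held under every pseudocount, filter and scaling tried. The median log2 change of the collagen prolyl subunits went from −0.47 to −0.78 (pseudocount 0.1) and −0.60 (0.5) in HID against SID. In HID against LID it went from −0.51 to −0.82, −0.64 and, scaled to summed FPKM, −0.62. Without centring, medians in LID against SID were −0.25 for HIF hydroxylases, −0.088 for collagen prolyl subunits, −0.43 for lysyl hydroxylases, −0.037 for JmjC, −0.21 for ALKBH, −0.094 for the other hydroxylases and −0.14 for all members. Scaled to summed FPKM, medians in HID against LID were −0.33 for HIF hydroxylases, −0.19 for lysyl hydroxylases, −0.31 for JmjC, 0.091 for ALKBH, 0.082 for the other hydroxylases and −0.21 for all members. Methylation alternatives were not run because no locus lies in a member. Read depth is unknown, and genes near 1 FPKM are the least certain.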
